A study of Mus musculus with 16 samples.

Results

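The genes whose response to the BRD9 inhibitor iBRD9 depends on RANKL were examined in mouse bone marrow-derived monocytes (BMDMs). For every gene the change under iBRD9 in cultures without RANKL was subtracted from the change under iBRD9 in cultures with RANKL, and the difference is called the interaction term. All 16 libraries of the series enter this contrast, 4 in each of 4 groups. Of 11559 tested genes, 241 were called for a non-zero interaction term at an adjusted p below 0.05, which is 2.08% of those tested. They are the subject of what follows.

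The cells came from the bone marrow of C57BL/6 mice, and the labels name no engineered allele. All 4 groups received M-CSF at 50 ng/ml. M + vector and M + iBRD9 received no RANKL, while MR + vector and MR + iBRD9 also received RANKL at 100 ng/ml. BRD9 was inhibited only by this compound, and the labels give no dose or time for it, while the study's text describes a day of inhibition and a micromolar dose. Replicates are numbered 1 to 4 within each group, and nothing in the labels says whether they were separate cultures or animals. A p-value here reflects how far these samples spread, and that spread may be only technical.

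BRD9 is a bromodomain subunit of the non-canonical BAF complex, which moves nucleosomes, and iBRD9 occupies the pocket that reads acetylated lysine. M-CSF acts through the receptor CSF1R on ERK and PI3K signalling and drives survival and growth of the macrophage lineage, in part through MYC and cyclin D1. MYC is known for raising genes of ribosome assembly and nucleotide synthesis. RANKL acts through RANK on NF-kB, AP-1 and NFATc1 and turns monocytes and macrophages toward osteoclasts. The interaction contrast asks whether iBRD9 acts alike on the M-CSF state and on the early RANKL state.

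Total counts per library lay between 15372775 and 18987926, and mitochondrial genes took 1.70% to 1.93% of them. Levels are given as CPM, read counts scaled to library size with TMM factors. The summed level of 6 macrophage genes (Csf1r, Adgre1, Cd68, Itgam, Lyz2 and Spi1) was between 20601 and 24882 CPM in all libraries. Most of it came from Lyz2 (16549.5 to 19969 CPM in the group means), so the sum says little about the other genes. Of 14 T and NK cell genes in the table, 7 had no count, among them the T cell markers Cd3d, Cd3e and Cd8a, and the list summed to 106 to 173 CPM, nearly all of it from Il7r, a cytokine receptor gene (1.81 to 6.05 CPM without it). RANKL separated the libraries along the first principal component (56.6% of the variance) and iBRD9 along the second (5.32%). Along the third, with 4.26%, libraries of the same group spread widely. MR + vector ran from 0.68 to 13.97 (replicate 2 highest), MR + iBRD9 from -13.2 (replicate 4) to -2.70, and M + iBRD9 from -8.80 (replicate 4) to 12.2 (replicate 2).

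The 241 genes divided into 116 with a higher interaction term (1.00% of tested genes) and 125 with a lower one (1.08%). Higher means that the response to iBRD9 was more positive with RANKL than without. At an unadjusted p below 0.05 there were 1594 genes, and the median interaction term over all tested genes was -0.01. When libraries were scaled by total counts alone, the split was 189 higher and 92 lower, a share of 67.3% higher against 48.1%. By itself, iBRD9 called 787 genes without RANKL (6.81%), of which 356 rose (3.08%) and 431 fell (3.73%). With RANKL it called 320 (2.77%), of which 83 rose (0.718%) and 237 fell (2.05%). The count of 787 was 511 without replicate 3 of M + vector, 483 without replicate 4 of M + vector and 463 when M + iBRD9 replicate 2 was dropped. The count of 320 was 199 to 207 when MR + iBRD9 lost replicate 4 or when replicate 1, 2 or 4 was missing from the RANKL vector group. These responses share their libraries with the interaction, so their values are set beside it as a description.

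Among the genes with a higher interaction term, 88 fell under iBRD9 without RANKL and were not called with RANKL. Only Hmga2 and Mmp12 fell without RANKL and rose with it. Another 11 rose with RANKL and were not called without it, and 15 passed in neither. The median response of the 116 genes was -0.27 on the log2 scale without RANKL and 0.12 with RANKL. Among the genes with a lower term, 56 rose without RANKL and were not called with it, and 42 fell with RANKL and were not called without it. A missed call does not show that a response was absent. Rassf4, Sat1, Selenop, Tlr8 and Wwp1 rose without RANKL and fell with it, Mmp27, Psap and Tlr7 fell in both settings, Nt5dc2 rose in both, and 18 genes passed in neither. Their median response was 0.17 without RANKL and -0.17 with RANKL. The 2 responses had opposite signs in 107 of the higher and 104 of the lower genes, a pattern that choosing genes by the interaction favours.

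**Figure D1:**
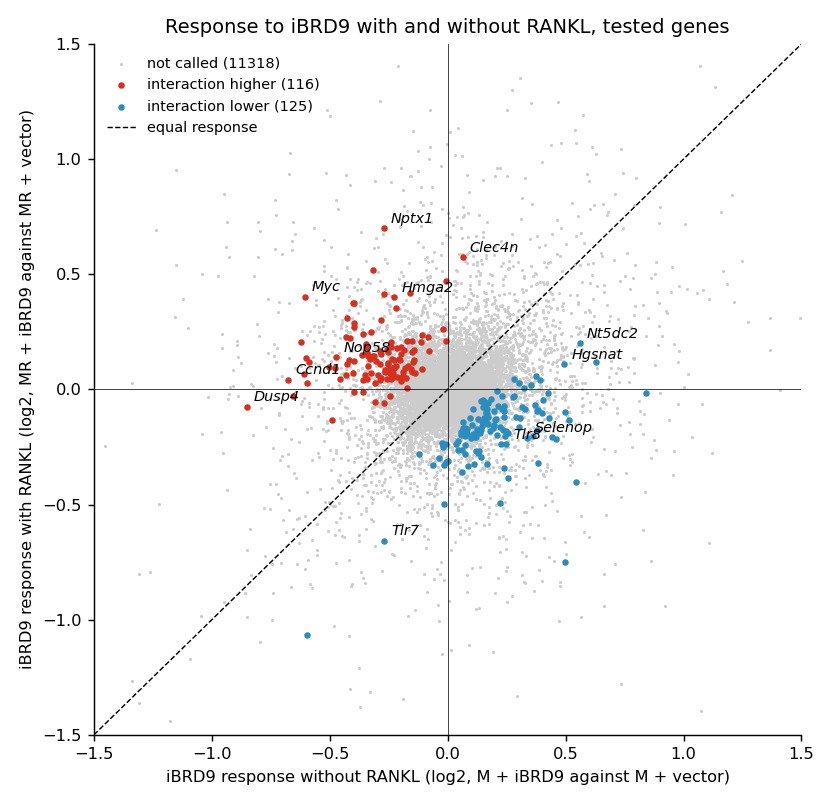
Each point is a tested gene, with its log2 response to iBRD9 without RANKL on the horizontal axis and with RANKL on the vertical axis (4 libraries per group). Red points are the 116 genes called with a higher interaction term and blue points the 125 called lower; the dashed line marks an equal response, and 22 genes that were not called lie outside the axes. Most red points lie left of 0 and slightly above 0, and most blue points right of 0 and slightly below 0.

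The number of called genes depended on single libraries. It fell to 73 (32 higher, 41 lower) without replicate 2 of MR + vector and to 73 (32 and 41) without replicate 4 of MR + iBRD9. Leaving out replicate 3 of M + vector gave 102 genes, replicate 2 of M + iBRD9 123 and replicate 4 of MR + vector 158. Leaving out replicate 4 of M + iBRD9 gave 541. The lower genes alone numbered 78 without replicate 4 of M + vector. Of the 241 genes, 64 stayed called in all 16 fits that left out a library, 30 of them higher and 34 lower. All 241 kept their sign in each of these fits, which choosing genes by the same contrast favours. The part of these libraries in the result was not tested, and genes named below with library values are among the 64 unless stated.

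**Figure D2:**
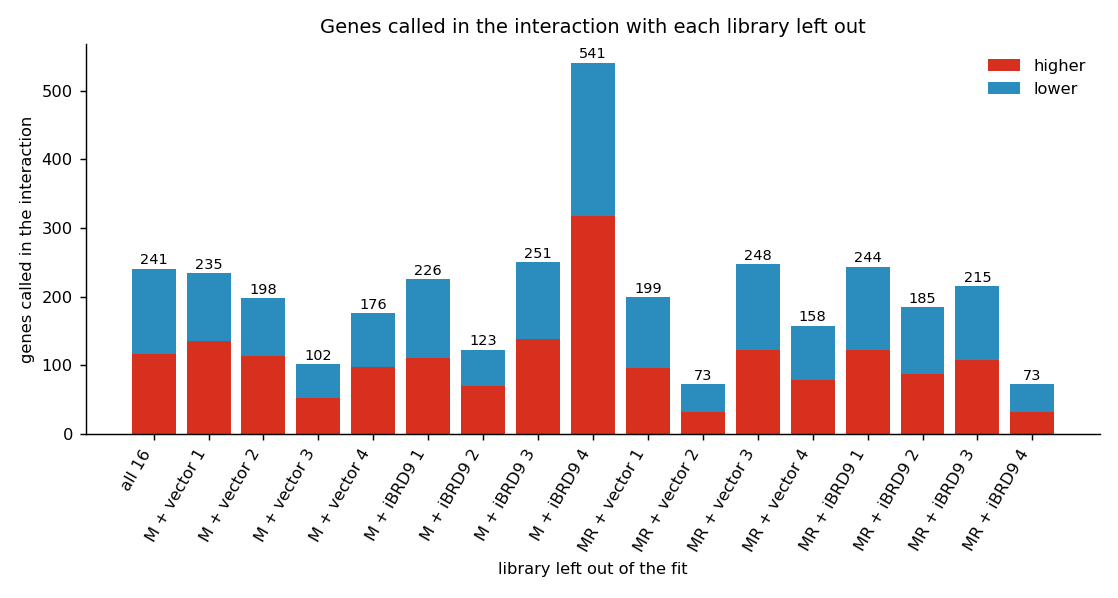
Bars give the number of genes called in the interaction with all 16 libraries and with each library left out in turn, split into higher (red) and lower (blue) terms. The count is 241 with all libraries, 73 at the lowest and 541 at the highest.

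Myc, a transcription factor gene of cell growth, had the largest term among the higher genes. Myc (ENSMUSG00000022346, chromosome 15, 61857240 to 61862223, GRCm39) was measured at 10.2, 11.3, 11.7 and 9.82 CPM in M + vector against 5.66, 4.94, 8.57 and 9.01 in M + iBRD9, and at 35.3, 23.2, 37.8 and 27.5 in MR + vector against 37.02, 35.7, 40.3 and 50.9 in MR + iBRD9. Without RANKL every iBRD9 library lay below every vector library, while with RANKL the groups overlapped and 3 of 4 iBRD9 libraries lay at or above 37.02 CPM. The log2 response of Myc to iBRD9 was -0.61 ± 0.17 without RANKL (adjusted p = 0.024), a fall, against 0.40 ± 0.13 with RANKL (adjusted p = 0.092). The interaction term was 1.01 ± 0.21 (adjusted p = 0.0097). RANKL raised Myc by 1.52 in vector cells and by 2.53 under iBRD9. Of 11 tested members of the MYC and MAX network, Myc alone was called by edgeR (9.09%, against 2.08% of all genes). DESeq2 called 1 further gene lower. Only 2 of the 11 terms were positive, and the median term of the list was -0.15. In bulk RNA, fewer cells of a type and less RNA per cell cannot be told apart, here and for every gene that follows.

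Ribosome biogenesis was the list with the most called members. Of 60 tested genes, 15 had a higher term and 0 a lower one, also at an unadjusted p below 0.05 (25.0% against 1.00% of all genes called higher), and 58 of 60 terms were positive with a median of 0.27. Without RANKL, 14 members fell under iBRD9 and 1 rose (median -0.16), while 3.73% of all genes fell and 3.08% rose. With RANKL, 1 rose and 0 fell (median 0.12), while 0.718% of all genes rose and 2.05% fell. RANKL itself raised 50 of the 60 in vector cells, where it called 40.7% of all tested genes, 20.1% higher and 20.6% lower. The count of 15 was 5 without MR + vector 2 or MR + iBRD9 4, 7 without M + vector 3 and 29 without M + iBRD9 4. It was 24 when genes with low counts were kept. The list's mean deviation from its average over all libraries, in log2 CPM, ran from -0.23 to -0.10 in M + vector against -0.38 to -0.21 in M + iBRD9, and from 0.07 to 0.25 in MR + vector against 0.23 to 0.38 in MR + iBRD9. Its vector and iBRD9 libraries thus overlapped slightly in both settings.

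Nop58, which encodes a core protein of the small nucleolar particles that guide rRNA methylation (ENSMUSG00000026020, chromosome 1, 59724130 to 59758203), was measured at 43.7, 46.6, 48.4 and 46.3 CPM in M + vector against 31.9, 31.00, 30.9 and 39.5 in M + iBRD9, and at 69.1, 61.8, 69.2 and 63.5 in MR + vector against 68.8, 71.3, 73.9 and 76.7 in MR + iBRD9. It dropped by 0.47 without RANKL, with no overlap of the groups (adjusted p = 3.1e-05), and its response with RANKL was 0.14 ± 0.06 (adjusted p = 0.32). The interaction term was 0.61 ± 0.09 (adjusted p = 0.00034). Its partner Nop56 had a term of 0.45 ± 0.11, and it lost the call in 3 of the fits without a library. Nop2, an rRNA methyltransferase gene, went from 40.02 ± 1.86 to 31.6 ± 2.81 CPM (mean ± SD, n = 4) without RANKL and from 53.7 ± 3.34 to 59.9 ± 5.10 with RANKL, a term of 0.50 ± 0.10. Polr1a, the gene of the largest subunit of RNA polymerase I, had a term of 0.43 ± 0.09, and the nucleolar helicase gene Ddx21 one of 0.35 ± 0.07. Bysl, which acts in maturation of the small ribosomal subunit, had a term of 0.64 ± 0.13. Larger estimates came from Tsr1 (0.74 ± 0.16) and Nle1 (0.73 ± 0.18), assembly factor genes that lost the call in 2 and 4 of those fits. Of 75 genes for the proteins of the cytosolic ribosome itself, edgeR called 0 in the interaction (median -0.06), as did DESeq2 and limma voom, and 1 had an unadjusted p below 0.05. In this list 15 genes rose under iBRD9 without RANKL, where 3.08% of all genes rose. Of 74 mitochondrial ribosomal protein genes and 72 genes of the respiratory chain and ATP synthase, the 3 tools also called 0, and in each list 3 genes had an unadjusted p below 0.05.

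Promoters were read for the E-box CACGTG, which MYC and MAX bind, using RefSeq entries (GRCm38.p6) from 250 bases before to 50 after the first listed start. Entries were found for 96 of the 116 higher genes, 96 of the 125 lower genes and 9313 of 11557 tested symbols. The E-box was in 18 of the 96 higher promoters (18.8%), 6 of the 96 lower ones (6.25%) and 10.3% of all. It was in 14 of 54 ribosome biogenesis promoters (25.9%). Autophagy, a list with 0 higher and 4 lower terms, had it in 6 of 33 promoters (18.2%), near the share of the higher genes. Macrophage identity, with 1 higher and 10 lower terms, had it in 1 of 32 (3.12%). Which protein binds these letters was not tested. The AP-1 motif TGACTCA was in 3.12% of higher, 7.29% of lower and 3.45% of all promoters. Both strands were searched, a site can hold both motifs by sharing the letters CA, and the shares are a description. Nop2 (chr6:125131633-125131882, + strand), with Hspd1, a mitochondrial chaperone gene (chr1:55088244-55088493, - strand), and Kcnn4, a potassium channel gene (chr7:24370013-24370262, + strand), are shown as examples of the 18. Their E-boxes lie 60, 80 and 133 bases before the start. The 250 bases before the start are given 5′ to 3′ on the gene's strand, with the E-box in capitals.
Nop2: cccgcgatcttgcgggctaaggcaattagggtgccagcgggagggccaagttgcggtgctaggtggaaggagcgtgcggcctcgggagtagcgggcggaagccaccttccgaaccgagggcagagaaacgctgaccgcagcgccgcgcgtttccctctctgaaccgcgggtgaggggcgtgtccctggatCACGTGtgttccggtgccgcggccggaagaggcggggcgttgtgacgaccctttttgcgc
Hspd1: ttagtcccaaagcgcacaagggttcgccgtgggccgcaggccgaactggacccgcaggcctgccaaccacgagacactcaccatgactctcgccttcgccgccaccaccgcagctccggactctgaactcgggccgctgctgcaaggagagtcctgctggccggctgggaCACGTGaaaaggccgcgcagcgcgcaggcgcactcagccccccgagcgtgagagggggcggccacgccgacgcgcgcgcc
Kcnn4: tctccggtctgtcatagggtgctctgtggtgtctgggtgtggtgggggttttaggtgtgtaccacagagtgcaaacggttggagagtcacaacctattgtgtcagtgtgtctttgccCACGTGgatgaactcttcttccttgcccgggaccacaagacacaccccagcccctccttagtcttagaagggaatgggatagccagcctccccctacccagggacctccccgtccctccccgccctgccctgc
Most promoters of higher genes lacked these letters. Myc, Dusp4 and Ccnd1 had no entry.

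Nucleotide synthesis followed, with 6 of 28 tested members higher and 0 lower (21.4% called, against 2.08% of all genes, median 0.16). At an unadjusted p below 0.05, 1 was lower. Ppat, the gene of the first enzyme of purine synthesis (ENSMUSG00000029246, chromosome 5, 77061096 to 77099425), stood at 28.8, 33.4, 32.7 and 29.97 CPM in M + vector against 25.6, 25.4, 24.3 and 25.8 in M + iBRD9, and at 39.2, 36.3, 38.2 and 40.1 in MR + vector against 43.02, 39.5, 42.9 and 42.2 in MR + iBRD9. The iBRD9 libraries lay below all vector libraries without RANKL, and the groups overlapped with RANKL. Ppat fell by 0.30 without RANKL (adjusted p = 0.0034), had a response of 0.12 ± 0.06 with RANKL and a term of 0.43 ± 0.09 (adjusted p = 0.010). The other 5 were Ctps, a CTP synthase gene (0.83 ± 0.18), Cad, which encodes the enzyme that opens pyrimidine synthesis (0.40 ± 0.10), and the purine enzyme genes Gart (0.36 ± 0.08), Pfas (0.32 ± 0.09) and Gmps (0.31 ± 0.07). Ppat kept its call in all fits that left out a library, and the other 5 lost it in 3 to 13. The count of 6 was 1 without MR + vector 2 or MR + iBRD9 4, and 3 without M + vector 3, M + iBRD9 2 or MR + vector 4.

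Genes of amino acid uptake and polyamine synthesis were also among the higher ones. Slc7a1, a transporter of arginine and lysine (ENSMUSG00000041313, chromosome 5, 148264220 to 148336714), was found at 63.5, 65.4, 78.3 and 67.5 CPM in M + vector against 49.6, 47.2, 50.3 and 50.4 in M + iBRD9, and at 104, 95.98, 98.99 and 97.1 in MR + vector against 103, 99.7, 108 and 113 in MR + iBRD9. All 4 M + iBRD9 libraries lay near 50 CPM, below the lowest M + vector library, and the RANKL groups overlapped. Without RANKL it fell by 0.48 (adjusted p = 2.2e-06), with RANKL the response was 0.10 ± 0.05 (adjusted p = 0.49), and the term was 0.57 ± 0.08 (adjusted p = 0.00018). Of 18 tested members of the polyamine and arginine list, Slc7a1, Odc1, the rate-limiting enzyme of polyamine synthesis (0.45 ± 0.12), and Azin1, which keeps that enzyme active (0.34 ± 0.06), had higher terms. Sat1, whose product marks polyamines for breakdown, had a lower one. The called share of this list was 22.2%, against 2.08% of all genes. Sat1 rose by 0.17 without RANKL and fell by 0.15 with RANKL, a term of -0.32 ± 0.06 (adjusted p = 0.0034). Odc1 lost its call in 11 of the fits without a library.

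Feedback genes of ERK signalling and AP-1 had 0 of 32 tested members lower, also at an unadjusted p below 0.05 (median 0.17). Of the 32, 6 were higher, so 18.8% were called, against 2.08% of all genes. They were Dusp4, Spred1, Spred2, Etv5, Plk2 and Fosl2. Dusp4, the gene of a phosphatase that switches off MAP kinases (ENSMUSG00000031530, chromosome 8, 35274451 to 35287048), was measured at 20.97, 24.9, 26.8 and 21.99 CPM in M + vector against 12.9, 11.7, 13.5 and 14.4 in M + iBRD9, and at 48.1, 39.6, 50.8 and 44.00 in MR + vector against 40.9, 41.1, 42.9 and 48.4 in MR + iBRD9. Its M + iBRD9 libraries lay far below M + vector, and its RANKL groups overlapped. The fall without RANKL was 0.85 (adjusted p = 2.5e-07) and the response with RANKL -0.08 ± 0.08 (adjusted p = 0.76), a term of 0.78 ± 0.12 (adjusted p = 0.00056). Spred2, an inhibitor of RAS signalling, had a term of 0.55 ± 0.12, and Etv5, an ETS transcription factor, one of 0.54 ± 0.13, which was lost in 4 of the fits without a library. The count of 6 was 3 without replicate 2 of MR + vector and 2 without replicate 4 of MR + iBRD9.

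Ccnd1, which encodes cyclin D1, an M-CSF-driven regulator of entry into the cell cycle (ENSMUSG00000070348, chromosome 7, 144483668 to 144493662), showed the same form. It stood at 189, 199.9, 239 and 227 CPM in M + vector against 129.7, 95.9, 142 and 167 in M + iBRD9, and at 259, 195, 255 and 223 in MR + vector against 231, 221, 231 and 277 in MR + iBRD9. Every M + iBRD9 library lay below every M + vector library, and both RANKL groups overlapped. Without RANKL it fell by 0.68 (adjusted p = 5.2e-05), with RANKL the response was 0.04 ± 0.10 (adjusted p = 0.92), and the term was 0.72 ± 0.14 (adjusted p = 0.0067). Of 66 cell cycle and replication genes, Ccnd1 and the helicase subunit genes Mcm2 and Mcm3 were called, all 3 higher (median 0.07). They were 4.55% of the list, against 2.08% of all genes called. Mcm2 and Mcm3 lost the call in 4 and 10 of the fits without a library. Of 37 sterol and fatty acid synthesis genes, Hmgcs1, Msmo1, Hsd17b7 and Elovl6 were higher (10.8%, against 2.08% of all genes called). In that list 0 were lower, also at an unadjusted p below 0.05, and 34 terms were positive (median 0.18). That list held 15 genes that fell under iBRD9 without RANKL, where 3.73% of all genes fell. DESeq2 called 10 of its members higher in the interaction. Its 4 calls became 0 when M + vector 3, M + iBRD9 2, MR + vector 2 or MR + iBRD9 4 was left out, and 15 when M + iBRD9 4 was. Hspd1 and Kcnn4, whose promoters are printed above, had terms of 0.37 ± 0.07 and 0.46 ± 0.08, and Nsun2, an RNA methyltransferase gene, one of 0.33 ± 0.07.

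**Figure D3:**
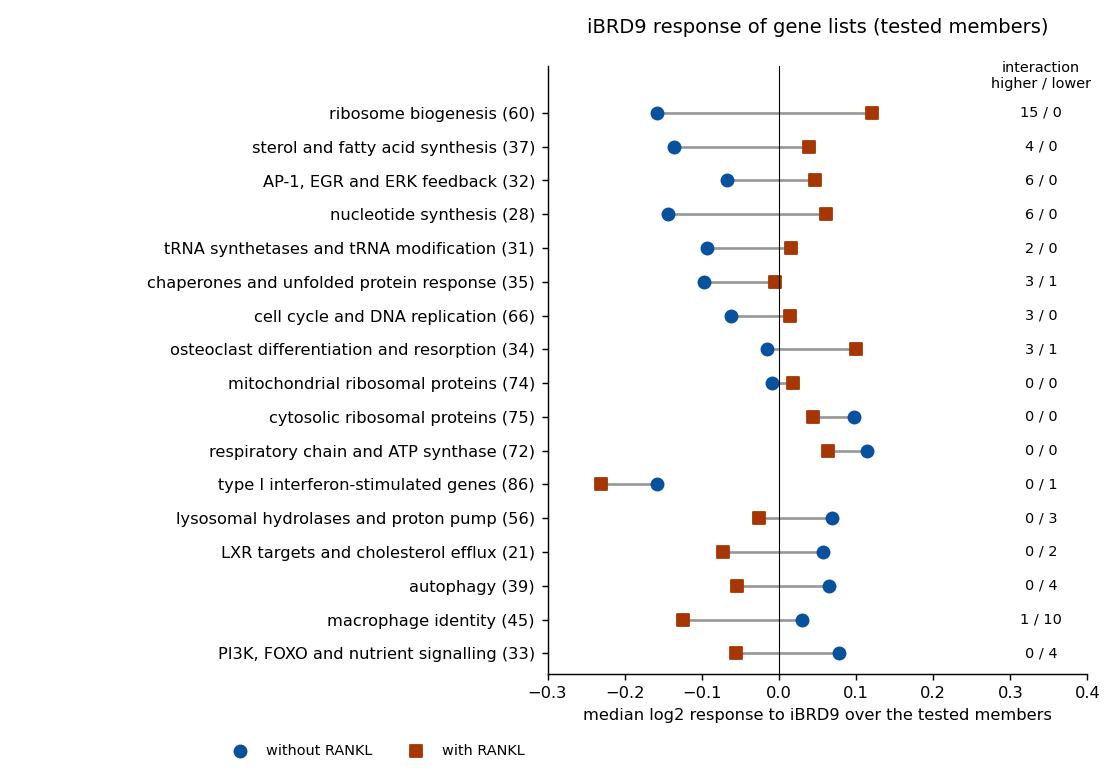
Median log2 response to iBRD9 over the tested members of 17 gene lists, without RANKL (blue circles) and with RANKL (brown squares), with the number of tested members in brackets and the number of members called higher and lower in the interaction at the right. Ribosome biogenesis moves from -0.16 to 0.12 and macrophage identity from 0.03 to -0.12.

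A second set of higher genes responded to iBRD9 mainly in the presence of RANKL, among them AP-1 genes of the osteoclast programme. Jdp2, an AP-1 family repressor that osteoclasts need (ENSMUSG00000034271, chromosome 12, 85645801 to 85686652), was found at 17.6, 16.5, 17.01 and 17.3 CPM in M + vector against 13.6, 14.04, 15.8 and 15.3 in M + iBRD9, and at 63.5, 54.9, 67.7 and 59.1 in MR + vector against 67.99, 76.6, 86.6 and 82.5 in MR + iBRD9. Under RANKL all 4 iBRD9 libraries exceeded all vector libraries, and without RANKL all 4 lay below. Jdp2 rose by 0.36 ± 0.07 with RANKL (adjusted p = 0.0015) and stood at -0.22 ± 0.09 without (adjusted p = 0.14), a term of 0.57 ± 0.11 (adjusted p = 0.0058). Fosl2, the gene of FRA-2 (ENSMUSG00000029135, chromosome 5, 32293145 to 32315186), was read at 24.1, 22.3, 25.7 and 24.7 CPM in M + vector against 24.9, 22.9, 19.4 and 19.5 in M + iBRD9, and at 33.7, 26.9, 34.3 and 31.6 in MR + vector against 41.9, 44.1, 38.9 and 44.6 in MR + iBRD9. The groups overlapped without RANKL and were apart with it. It rose by 0.42 ± 0.08 with RANKL (adjusted p = 0.0015), stood at -0.16 ± 0.09 without and had a term of 0.58 ± 0.12 (adjusted p = 0.0078). The protease gene Adam8 had a term of 0.28 ± 0.07, and its call was lost in 3 of the fits without a library. Of 34 tested osteoclast genes these 3 were higher, and Plekhm1, a lysosome adaptor that osteoclasts need for resorption, was lower (-0.36 ± 0.07, adjusted p = 0.0078). Together they were 11.8% of the list, against 2.08% of all genes called.

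The better known osteoclast genes were not called in the interaction. Ctsk, the collagen-degrading protease of osteoclasts, fell in parallel, from 6.37 to 2.81 CPM without RANKL and from 15.1 to 5.56 with RANKL, and its term was -0.26 ± 0.24 (adjusted p = 0.69). Terms were 0.15 ± 0.13 for Acp5, -0.08 ± 0.07 for Mmp9 and 0.09 ± 0.08 for Nfatc1, with adjusted p of 0.67, 0.67 and 0.68. Brd9 itself, the gene of the inhibited protein, stood at 55.7 and 55.4 CPM without RANKL and at 55.5 and 54.1 with RANKL (vector, then iBRD9). A compound that blocks the protein need not change this level, so it checks nothing about the treatment.

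Clec4n, which encodes the fungal receptor dectin-2 (ENSMUSG00000023349, chromosome 6, 123206802 to 123223980), was the one macrophage identity gene called higher, among 5 of 45 with a positive term. It was measured at 13.4, 14.3, 14.1 and 12.6 CPM in M + vector against 12.2, 14.8, 13.4 and 16.3 in M + iBRD9, and at 30.5, 36.2, 36.7 and 32.99 in MR + vector against 50.3, 53.7, 50.6 and 48.6 in MR + iBRD9. Without RANKL the groups overlapped fully, and with RANKL every iBRD9 library lay above every vector library. Clec4n rose by 0.57 ± 0.07 with RANKL (adjusted p = 6.4e-06), with 0.06 ± 0.09 without it and a term of 0.51 ± 0.12 (adjusted p = 0.018). Emp2, a membrane protein gene (ENSMUSG00000022505, chromosome 16, 10099613 to 10131832), was measured at 46.7, 46.7, 48.3 and 47.8 CPM in M + vector against 49.5, 41.2, 46.3 and 51.4 in M + iBRD9, and at 35.8, 33.4, 33.3 and 30.99 in MR + vector against 44.3, 47.8, 44.5 and 48.4 in MR + iBRD9. RANKL lowered it in vector cells by 0.51, and the MR + iBRD9 libraries lay near the level of M + vector, a term of 0.48 ± 0.09 (adjusted p = 0.0055).

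Hmga2 and Mmp12 changed in opposite directions, each past the test in both settings. Hmga2, a chromatin architecture gene (ENSMUSG00000056758, chromosome 10, 120197180 to 120312374), stood at 140.5, 129, 153 and 161 CPM in M + vector against 133, 104, 130.1 and 132 in M + iBRD9, and at 85.7, 80.7, 93.3 and 91.8 in MR + vector against 112, 114, 115 and 123 in MR + iBRD9. It fell by 0.23 without RANKL (adjusted p = 0.033), where the groups overlapped and replicate 2 of M + iBRD9 was lowest, and rose by 0.40 ± 0.07 with RANKL (adjusted p = 0.00035), where they did not. Its term was 0.63 ± 0.09 (adjusted p = 0.00034). Mmp12, the macrophage elastase gene, went from 594 ± 20.1 to 512 ± 34.1 CPM without RANKL and from 636 ± 26.5 to 719 ± 13.3 with RANKL, a term of 0.39 ± 0.06 (adjusted p = 0.00034). Nptx1, a pentraxin gene known from neurons, had a term of 0.97 ± 0.21 at a low level, between 3.84 and 11.1 CPM in the group means.

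**Figure D4:**
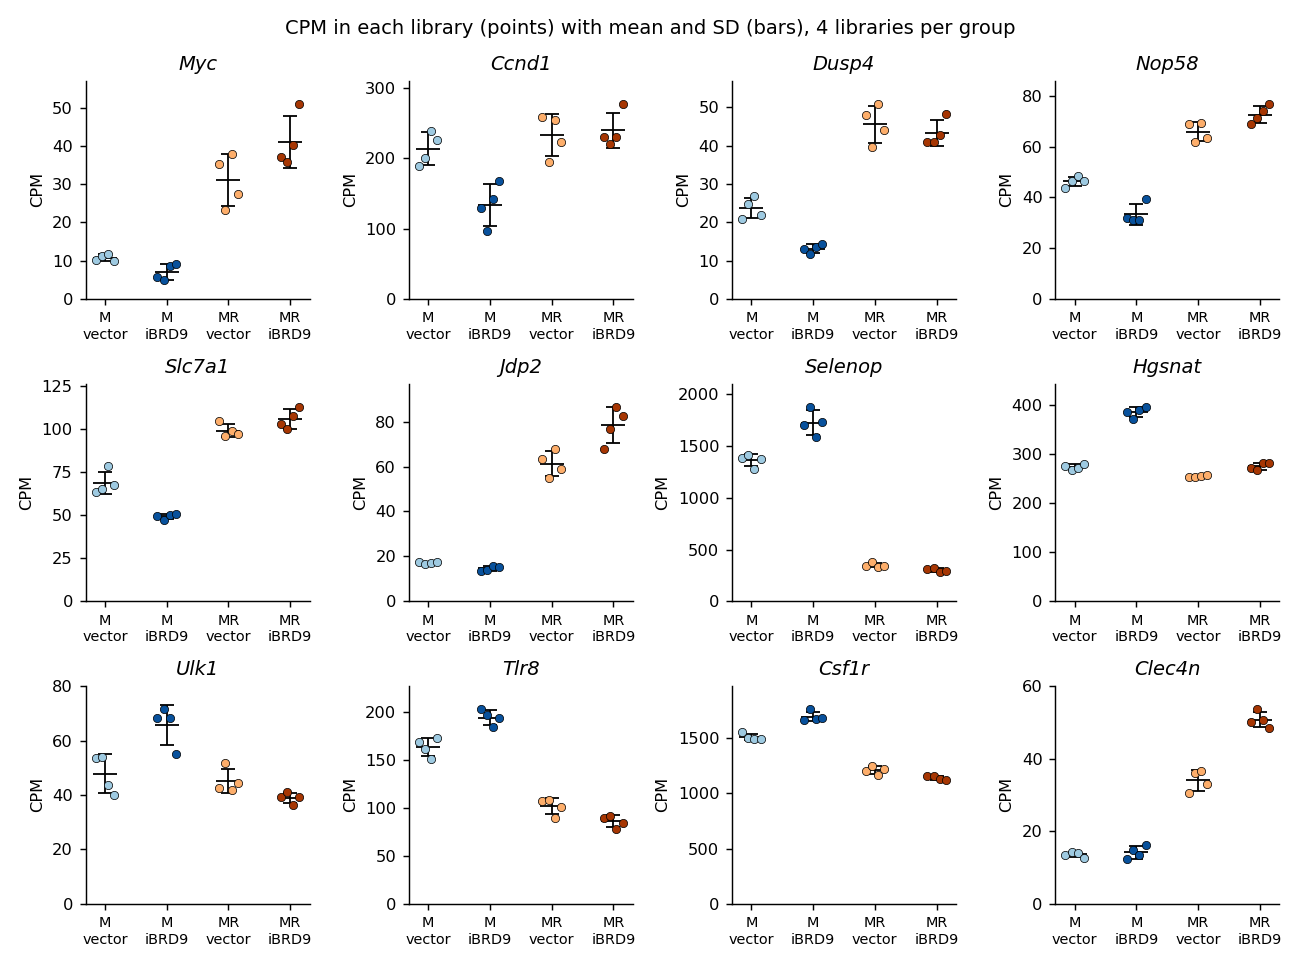
CPM of 12 genes in each library (points) with the mean and SD of each group (bars, n = 4), on axes that start at 0. Myc, Ccnd1, Dusp4, Nop58 and Slc7a1 drop under iBRD9 without RANKL and not with it, Jdp2 and Clec4n are raised by iBRD9 with RANKL, and Selenop, Hgsnat, Ulk1, Tlr8 and Csf1r are raised by iBRD9 without RANKL.

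Macrophage identity was the list with the most lower calls. Of 45 tested macrophage identity genes, 10 had a lower term and 1, Clec4n, a higher one, against 1.08% and 1.00% of all genes, and 40 terms were negative (median -0.14). Under iBRD9, 11 rose and 6 fell without RANKL (median 0.03), and 3 rose and 16 fell with RANKL (median -0.12). Of all genes, 3.08% rose and 3.73% fell without RANKL, and 0.718% rose and 2.05% fell with it. Leaving out M + vector 3 or MR + vector 2 gave 4 in place of 10, leaving out MR + iBRD9 4 gave 5 and leaving out M + iBRD9 2 gave 6. By library the list's mean deviation was 0.22 to 0.27 in M + vector and 0.16 to 0.26 in M + iBRD9, which overlap. It was -0.19 to -0.11 in MR + vector and -0.33 to -0.29 in MR + iBRD9, which do not.

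Csf1r, the M-CSF receptor gene (ENSMUSG00000024621, chromosome 18, 61233670 to 61265221), stood at 1556, 1502, 1493 and 1489 CPM in M + vector against 1667, 1760.2, 1674 and 1678 in M + iBRD9, and at 1205, 1251, 1164 and 1221 in MR + vector against 1159, 1152, 1131 and 1121 in MR + iBRD9. Vector and iBRD9 libraries were apart in both settings, with iBRD9 above vector without RANKL and below it with RANKL, there by a margin of few CPM. Csf1r rose by 0.17 ± 0.03 without RANKL (adjusted p = 0.0011), and its response with RANKL was -0.08 ± 0.03 (adjusted p = 0.18), giving a term of -0.25 ± 0.04 (adjusted p = 0.0029). The 3 chains of the complement starter C1q went the same way, with terms of -0.31 ± 0.06 for C1qa, -0.27 ± 0.06 for C1qb and -0.28 ± 0.07 for C1qc. Of these only C1qa kept its call in all fits that left out a library. Mertk, a receptor for the uptake of dead cells, had a term of -0.43 ± 0.10, and Gas6, which encodes its ligand, one of -0.26 ± 0.06, and these lost the call in 3 and 5 of those fits. Lyz2, the lysozyme gene and among the most abundant transcripts here, went from 16549.5 ± 629 to 17462 ± 1119 CPM without RANKL and from 19969 ± 499 to 17629.6 ± 334 with RANKL. Only the fall with RANKL passed the test, and the term was -0.26 ± 0.05 (adjusted p = 0.0053). Irf8, a transcription factor gene of the monocyte lineage that restrains osteoclast formation, had a term of -0.25 ± 0.06 (adjusted p = 0.022) and lost the call in 5 of the fits without a library. Siglec1, another macrophage gene, was not called (-0.20 ± 0.09, adjusted p = 0.33), falling in both settings, from 381 to 241 and from 411 to 227 CPM.

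Selenop and Hgsnat had the smallest p-values among the lower genes. Selenop, the gene of a secreted selenium carrier (ENSMUSG00000064373, chromosome 15, 3298029 to 3309990), was measured at 1384, 1416, 1279.7 and 1377 CPM in M + vector against 1704, 1879, 1583 and 1729 in M + iBRD9, and at 344, 384, 332 and 345 in MR + vector against 316, 323, 287 and 288 in MR + iBRD9. The groups were apart in both settings and in opposite order. Selenop rose by 0.34 ± 0.05 without RANKL (adjusted p = 1.9e-05) and fell by 0.21 with RANKL (adjusted p = 0.011), a term of -0.55 ± 0.07 (adjusted p = 4.6e-05). Hgsnat, a lysosomal enzyme gene of heparan sulphate breakdown (ENSMUSG00000037260, chromosome 8, 26434481 to 26466781), stood at 275, 268, 271 and 281 CPM in M + vector against 386, 371, 389 and 397 in M + iBRD9, and at 253, 254, 255 and 257 in MR + vector against 271, 268, 282 and 282 in MR + iBRD9. Both settings kept iBRD9 above vector, by a wide gap without RANKL and a narrow one with it. It rose by 0.49 ± 0.04 without RANKL (adjusted p = 3.2e-11), and its response with RANKL was 0.11 ± 0.04 (adjusted p = 0.11), giving a term of -0.38 ± 0.05 (adjusted p = 9.9e-05). Nt5dc2 rose in both, by 0.56 ± 0.04 without RANKL and by 0.20 ± 0.04 with it.

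Lysosome and autophagy genes were lower as a minority of their lists. Of 56 lysosomal hydrolase and proton pump genes, Ctsb, Lgmn and Psap were lower and 0 higher, also at an unadjusted p below 0.05 (median -0.10). The called share was 5.36%, against 2.08% of all genes. The cysteine protease gene Lgmn went from 1446 ± 28.7 to 1708 ± 35.5 CPM without RANKL and from 748 ± 29.4 to 712 ± 16.5 with RANKL, a term of -0.31 ± 0.05 (adjusted p = 0.00034). Ctsb, the cathepsin B gene, had a term of -0.19 ± 0.04, and Psap, the precursor gene of saposins, one of -0.16 ± 0.04, which lost its call in 14 of the fits without a library. Of 39 autophagy genes, Ulk1, Gabarap, Tfe3 and Flcn were lower and 0 higher, also at an unadjusted p below 0.05 (median -0.13). The called share was 10.3%, against 2.08% of all genes, and 1 to 5 were called when single libraries were left out. Gabarap and Tfe3 each lost the call in 13 of these fits and Flcn in 7. Ulk1, the kinase gene that starts autophagosome formation (ENSMUSG00000029512, chromosome 5, 110932354 to 110957963), stood at 53.8, 54.2, 43.5 and 39.96 CPM in M + vector against 68.2, 71.6, 68.2 and 55.2 in M + iBRD9, and at 42.7, 51.7, 41.9 and 44.5 in MR + vector against 39.2, 40.97, 36.4 and 39.2 in MR + iBRD9. It rose by 0.46 ± 0.08 without RANKL (adjusted p = 0.00059), and its response with RANKL was -0.21 ± 0.09 (adjusted p = 0.24), where its libraries also did not overlap, with a term of -0.67 ± 0.12 (adjusted p = 0.0029).

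The list of PI3K, FOXO and nutrient signalling had 0 higher terms among 33 tested members, also at an unadjusted p below 0.05 (median -0.15). Lower terms numbered 4, or 12.1%, against 1.08% of all genes called lower. They were Sesn1, a sestrin that restrains mTORC1 (-0.32 ± 0.07), the FOXO target Ccng2 (-0.47 ± 0.11), Tsc22d3, also a glucocorticoid target (-0.35 ± 0.10), and Zfp36l1, an mRNA decay factor (-0.40 ± 0.08). Ccng2 and Tsc22d3 lost the call in 5 and 10 of those fits. The count ranged from 2 to 7 with single libraries left out. Of 18 glucocorticoid-induced genes, Tsc22d3, Mertk and Zfp36 were lower (16.7%, against 1.08% of all genes called lower). Zfp36, the gene of tristetraprolin, which shortens the life of cytokine mRNAs, rose from 77.97 ± 5.50 to 101 ± 3.77 CPM without RANKL and stood at 64.3 ± 0.674 and 66.96 ± 1.92 with RANKL.

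Interferon genes were read as a list of receptors, sensors and signal transducers and a list of induced genes. In the first, Ifnar2, Tlr7 and Tlr8 were lower among 31 tested (median -0.11), with 1.08% of all genes called lower, and Ifnar2 lost the call in 4 of the fits without a library. Tlr8, a sensor of single-stranded RNA (ENSMUSG00000040522, chromosome X, 166025692 to 166047325), stood at 169, 161, 151 and 173 CPM in M + vector against 203, 197, 184 and 194 in M + iBRD9, and at 107, 108, 89.9 and 101 in MR + vector against 89.9, 91.9, 78.3 and 84.2 in MR + iBRD9. iBRD9 libraries lay above vector without RANKL, and with RANKL the groups overlapped with iBRD9 mostly below. Tlr8 rose by 0.25 ± 0.05 without RANKL (adjusted p = 0.0043) and fell by 0.24 with it (adjusted p = 0.016), a term of -0.49 ± 0.08 (adjusted p = 0.00090). Tlr7, its neighbour on the X chromosome, fell in both, by 0.27 and by 0.66, with a term of -0.39 ± 0.07 (adjusted p = 0.0029). Over all tested genes, 3.73% fell under iBRD9 without RANKL and 2.05% with it. The list of 86 genes induced by type I interferon had 29 that fell and 1 that rose under iBRD9 without RANKL (median -0.16). With RANKL, 46 of the list fell and 1 rose (median -0.23). Only Ms4a6b had a called interaction term by edgeR (-0.31 ± 0.08), lost in 9 of the fits without a library, a share near that of all genes. DESeq2, the fit without a filter and the replicate block each called 4 lower. The median term was -0.06. Irf7, a transcription factor of that response, had a term of -0.16 ± 0.09 (adjusted p = 0.46).

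**Figure D5:**
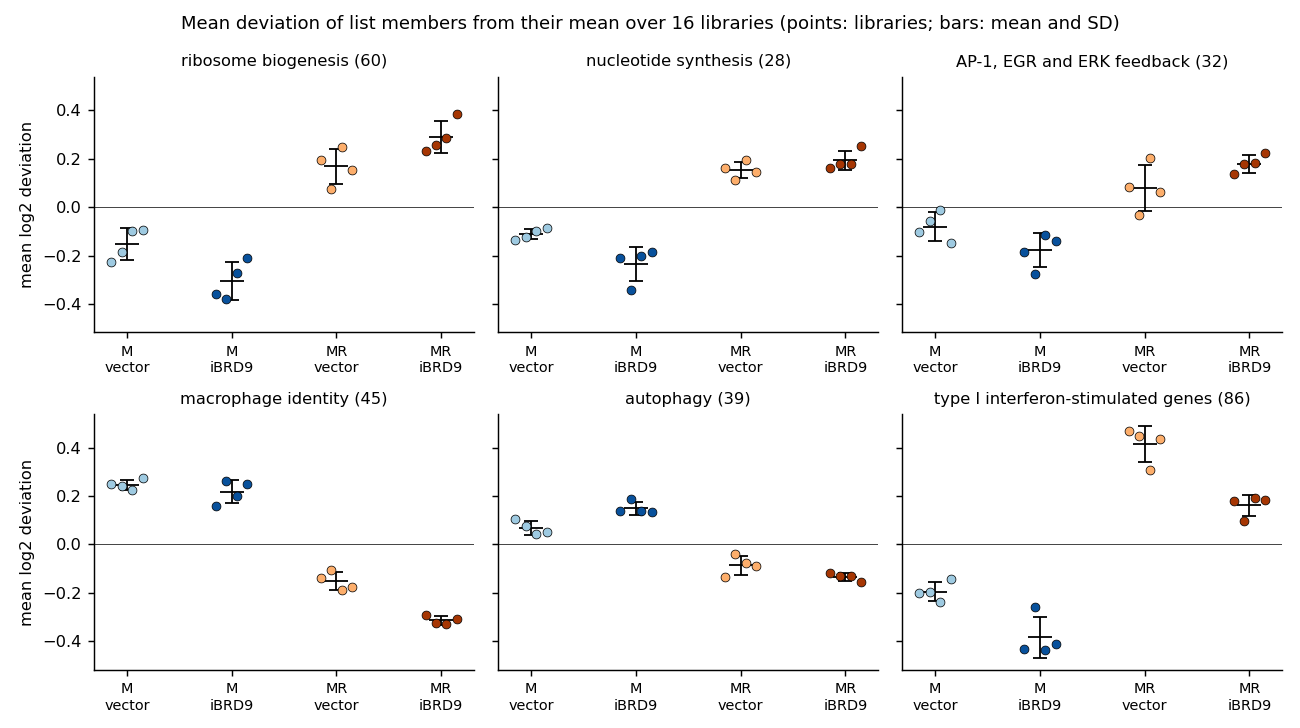
Mean deviation of the tested members of 6 lists from each gene's mean over 16 libraries, in log2 CPM, by library (points) with the mean and SD of the group (bars, n = 4); member numbers are in brackets. Ribosome biogenesis runs from -0.38 to -0.21 in M + iBRD9 and from 0.23 to 0.38 in MR + iBRD9, macrophage identity is lowest in MR + iBRD9 (-0.33 to -0.29), and interferon-stimulated genes lie lower with iBRD9 than with vector in both settings.

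The interferon response core GAAANNGAA was looked for on both strands of the same promoters. It was in 9.38% of higher, 15.6% of lower and 7.45% of all promoters, and in 49.3% of the promoters of interferon-stimulated genes. In macrophage identity it was in 5 of 32 promoters (15.6%), in autophagy in 9.09% and in ribosome biogenesis in 7.41%. Selenop (chr15:3270517-3270766, + strand) and Tlr8 (chrX:167264330-167264579, - strand) are shown as examples of lower genes with the core. It lies 164 and 67 bases before the start, in Tlr8 on the opposite strand. The core is in capitals.
Selenop: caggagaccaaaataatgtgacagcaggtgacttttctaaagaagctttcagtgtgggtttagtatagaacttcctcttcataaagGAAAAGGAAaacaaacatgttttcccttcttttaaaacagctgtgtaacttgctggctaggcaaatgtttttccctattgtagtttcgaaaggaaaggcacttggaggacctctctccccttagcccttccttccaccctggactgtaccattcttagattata
Tlr8: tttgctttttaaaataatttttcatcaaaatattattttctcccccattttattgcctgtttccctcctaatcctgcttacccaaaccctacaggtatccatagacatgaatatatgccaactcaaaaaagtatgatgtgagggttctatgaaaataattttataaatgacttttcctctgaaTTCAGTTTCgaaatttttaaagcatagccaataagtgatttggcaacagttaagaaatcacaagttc
A match of these letters is a description and says nothing about binding in these cells.

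Some markers of other cells moved with the lower genes, and other marker lists did not. Of 19 tested neutrophil genes, 18 had negative interaction terms (median -0.40, against -0.01 over all tested genes). S100a9, a granulocyte alarmin gene, alone was called by edgeR (-0.71 ± 0.18, adjusted p = 0.033), not by DESeq2, and lost the call in 8 of the fits without a library. Leaving out Mmp9, which osteoclasts also make, the summed level of the neutrophil list was 147 to 158 CPM in M + vector against 141 to 178 in M + iBRD9, and 124 to 148 in MR + vector against 87.4 to 109.8 in MR + iBRD9. The granule genes Mpo and Elane stood between 2.12 and 5.39 CPM and between 1.56 and 3.28 CPM in the group means. Of 3 tested B cell genes all had negative terms, and Blnk, a B cell adaptor gene, was lower (-0.29 ± 0.07, adjusted p = 0.018), losing the call in 2 of those fits. The B cell list summed to 114 to 128 CPM in M + vector against 137 to 146 in M + iBRD9, and to 115 to 126 in MR + vector against 109 to 118 in MR + iBRD9. Without Blnk it summed to 6.60 to 9.32 CPM in M + vector against 8.76 to 10.9 in M + iBRD9, and to 5.90 to 7.98 in MR + vector against 5.27 to 7.01 in MR + iBRD9. Of 4 tested erythroid and megakaryocyte genes, 2 had positive terms (median -0.05). Pf4, a platelet chemokine gene, was the 1 gene called lower in that list (-0.31 ± 0.08, adjusted p = 0.043). It stood at 214 and 214 CPM without RANKL and at 115 and 92.7 with it (vector, then iBRD9). Its call was lost in 11 fits and with limma voom. That list without Pf4 lay between 3.97 and 6.71 CPM in all libraries. Of 3 tested T and NK cell genes all had negative terms (median -0.62) and edgeR called 0, as did DESeq2 and limma voom, with 0 at an unadjusted p below 0.05. Of 10 tested stromal, osteoblast and endothelial genes, 7 had positive terms (median 0.19). Positive terms were found for 2 of 3 mast cell and basophil genes and 1 of 6 dendritic cell genes. In these lists 0 were called. The 1 gene called lower was 5.26% of the neutrophil, 33.3% of the B cell and 25.0% of the erythroid and megakaryocyte list. Over all genes, 1.08% were called lower, and a share in so short a list rests on 1 gene. Whether such cells have a part in any term above was not tested.

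Genes nearest the limit of the call were Pfas, Rrs1 and Slc15a4 inside (adjusted p from 0.0477 to 0.0490) and Hyal1, Sms and Rac2 outside (from 0.0503 to 0.0511).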

How the data were processed

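RNA was sequenced from 16 BMDM libraries. Per the labels and the study's methods, Cutadapt was used for trimming, HISAT2 for alignment (GRCm39) and HTSeq for counting, and the authors deposited the unnormalized count of each gene. The authors also deposited FPKM values in the same table, which were not used. The strand setting and annotation release are not given in the sources used here, so overlapping, antisense and near-identical genes are uncertain. All columns matched a sample.

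Of 21898 genes, 15697 had a count. Genes were kept by filterByExpr by group (11559), scaled by TMM and tested with edgeR 4.0.16 (R 4.3.3), quasi-likelihood, two-sided, 1 mean per group, no covariate, 12 residual degrees of freedom, Benjamini-Hochberg over all tested genes. Terms are log2 ± SE. The common biological coefficient of variation was 5.86%. The script was tested on simulated counts. Pairs of libraries within a group differed by 2.81 to 11.3 chi-square per degree of freedom, so none was a copy. The largest values, 7.37, 10.2 and 11.3, were those of M + iBRD9 4 against the other libraries of its group. List deviations use log2(CPM + 0.5).

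Named genes were the 12 largest terms and 8 smallest p per direction among called genes of at least 5 CPM without Gm or Rik names, the 2 called list members with the smallest p per direction, and 10 others whatever their values. Other list members were named after their values were seen. Members and lists were chosen with earlier results of these data known. Alternatives were RLE, upper-quartile and total-count scaling, no filter, a stricter filter, DESeq2 1.42.0, limma 3.58.1 voom, a replicate block and each library left out. Some genes are not reported here.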

Additional observations from a re-analysis of the deposited data

Results flagged for a closer look

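The response to iBRD9 differed with RANKL, by the test of the difference itself, for 241 genes. Among the named genes, 328 groups of 4 libraries were checked for a library far from its others (gap over range, against Dixon's critical value), and 18 had one. Chance flags about 1 in 20 groups.

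Among growth and lipid genes these were Nop58 at 39.5 CPM in replicate 4 of M + iBRD9, Hmga2 at 104 and Elovl6 at 22.2 in replicate 2 of M + iBRD9, Txnrd1 at 514 in replicate 2 of M + vector, Abcc1 at 443 in replicate 3 of MR + iBRD9 and Herpud1 at 51.4 in replicate 4 of M + vector. Among macrophage and lysosome genes they were Csf1r at 1760.2 in replicate 2 of M + iBRD9, Siglec1 at 248 in replicate 1 of MR + iBRD9, Lgmn at 736 in replicate 3 of MR + iBRD9, Plekhm1 at 298 in replicate 4 of M + iBRD9 and Pf4 at 104 in replicate 4 of MR + vector. The remaining genes were Tnf at 11.0 in replicate 1 of M + vector, Arl5c at 29.6 and Crebrf at 51.4 in replicate 1 of MR + iBRD9, Gpr162 at 17.3 in replicate 2 of M + vector, Ms4a6b at 104 and Blnk at 106 in replicate 3 of M + vector, and Nfatc1 at 58.8 in replicate 4 of M + vector.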

How the results depend on the processing

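The filter on low counts left 10339 genes untested. Called interaction genes numbered 388 (228 higher) with no filter on low counts and 382 (221 higher) with DESeq2 1.42.0, against 241 (116 higher). With total counts only, 189 were higher. With the replicate block there were 421, 214 higher and 207 lower, and all 241 were among them. Same-numbered libraries of different groups correlated at -0.04 to 0.14 in their deviations (mean 0.027), and other pairs at -0.10 to 0.10 (mean -0.009). Of 16 libraries, 8 correlated best with their own number. Whether the numbers mark pairs was not tested. They were left out of the main fit because the labels do not say what they pair. RLE scaling, upper-quartile scaling, the stricter filter and limma voom gave 242, 244, 250 and 223. All 241 kept their sign under every alternative run, which choosing them by this contrast favours. Of them, 181 kept their call in all that did not leave out a library. Ribosome biogenesis kept 13 to 24 higher calls under these.

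Leaving out single libraries gave 73 to 541 called interaction genes (32 to 317 higher, 41 to 224 lower), 463 to 1104 for iBRD9 without RANKL, 199 to 411 for iBRD9 with RANKL, 4278 to 4948 for RANKL in vector cells and 5367 to 5899 for RANKL under iBRD9.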

Other observations

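Genes with a term above 0.7 included several that are low or variable. Tnf, a cytokine gene, had a term of 0.78 ± 0.21 (adjusted p = 0.041), Plau, the urokinase gene, 0.71 ± 0.16, Fgfr1, a growth factor receptor gene, 0.77 ± 0.18, and Klhl23 0.83 ± 0.22. Among lower genes the acute phase gene Saa3 had the largest estimate, -1.25 ± 0.32 (adjusted p = 0.030), going from 2.94 to 4.13 CPM without RANKL and from 4.66 to 2.77 with RANKL. Plxdc2 had -0.94 ± 0.23 and Tmem176b -0.86 ± 0.23. Tnf, Plxdc2, Tmem176b and Klhl23 lost the call in 9, 6, 9 and 12 of the 16 fits that left out a library, Saa3 in 7, and Plau and Fgfr1 in 2 each. Neither DESeq2 nor limma voom called Tnf.

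Genes of oxidant defence gave 3 higher terms of 33 tested (9.09%, against 1.00% of all genes called higher). They were Hmox1, which degrades haem (0.31 ± 0.08), Txnrd1, thioredoxin reductase (0.23 ± 0.06), and Abcc1, a glutathione conjugate exporter (0.22 ± 0.06). Of 21 LXR target and cholesterol efflux genes, Abca1, the cholesterol exporter gene (-0.44 ± 0.10), and Soat1, which esterifies cholesterol (-0.24 ± 0.06), were lower. Their share was 9.52%, against 1.08% of all genes called lower. Of these 5 genes, Hmox1 and Soat1 lost the call in 11 of the fits without a library, Txnrd1 in 9, Abcc1 in 7 and Abca1 in 5, and DESeq2 did not call Abca1. Of 29 BAF subunit and BET genes, 34 glycolysis and hypoxia genes and 30 ATF4 target genes, 0 were called by edgeR in the interaction, and 3, 6 and 8 had an unadjusted p below 0.05. DESeq2 called 1 ATF4 target higher and none of the others, and limma voom called 0.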
